A study of Mus musculus with 4 samples.

Results

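Among 22556 genes measured in E16.5 mouse lungs by RNA sequencing, 79 outside the left-out symbols were clearly lower in Shh-Stk11 than in Control libraries. The symbols left out covered families best known for motile cilia, and other families and single genes as well. A gene was taken when its higher Shh-Stk11 value was at most 0.5 of its lower Control value and its Control mean was at least 1 FPKM, the unit of fragments (here reads) scaled to transcript length and library size. Of 12882 genes with such a Control mean, 208 met both conditions, or 1.61%. By symbol, 129 of them were then left out, among them RIKEN clones (32), microRNA genes (21), Ccdc genes (16), predicted Gm genes (8), Lrrc genes (7), small nucleolar RNA genes (7) and Wdr genes (6). Hb genes (2), an Upk gene and the single genes Gkn2, Cym, Gja3 and Acoxl were left out too. In Shh-Stk11, Gkn2 had 4.62% of its Control mean left, Cym 8.06%, Gja3 9.22% and Acoxl 11.6%. Of the 208, 24 were listed at 0 in a Control library and in both Shh-Stk11 libraries, and met the factor through these zeros. They were 23 of the microRNA and small nucleolar RNA genes left out and 1 of the 79, and without them 184 genes remained. The mirrored rule for higher genes took 93 of 12809 genes, or 0.726%, and 66 after the same symbols were left out, with 16 and 3 of these listed at 0 in a Shh-Stk11 library. The values that chose the 79 genes are the ones described here, so their difference between the genotypes is a description and carries no test. The rule sets both Shh-Stk11 values of every member below both Control values, or equal to them at 0, and 27.6% of all genes tested had both below both. Of the 79 genes, 42 belonged to a list of motile cilium genes written by their known function, and 37 did not.

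Both genotypes carried the Shh-Cre driver, which deletes floxed alleles in the endodermal cells that give rise to the epithelium of the lung. Control embryos had the genotype Shh-Cre; Stk11F/+, with 1 intact allele of Stk11, and Shh-Stk11 embryos had Shh-Cre; Stk11F/F. Each group had 2 libraries, numbered 1 and 2, and the study's methods call replicates of this kind independent biological ones. The labels gave the strain as C57BL/6, whereas the methods described mixed genetic backgrounds, and neither the sex nor the litter was labelled. STK11 is a serine/threonine kinase that activates AMPK and related kinases. The libraries held RNA of the whole organ, in which mesenchyme, vessels and blood kept Stk11, and in which fewer cells of a type and less RNA per cell cannot be told apart.

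Multiciliated cells line the airways and carry many motile cilia that move mucus. Their axoneme is built from microtubule doublets, with dynein arms as motors and nexin links and radial spokes as regulators, and many of the same parts form the tail of sperm. FOXJ1 and RFX factors switch on these genes, and RFX factors bind a palindromic element, the X-box, in many of their promoters.

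The libraries corresponded to an estimated 30.9 to 38.1 M reads, and a single read on 2000 bases of transcript stood for 0.0147 to 0.0181 FPKM. Stk11 was at 43.99 and 45.5 FPKM in Control and at 29.5 and 25.95 FPKM in Shh-Stk11 lungs (limma adjusted p 0.0499, log2 fold change -0.69, lost in 12 of 15 alternatives). Xist was at 0.239 FPKM and the Y-linked gene Ddx3y at 23.5 FPKM in Shh-Stk11 2, whereas Xist was at 65.1 to 169 FPKM and Ddx3y at or under 0.0285 FPKM in the other 3 libraries, so that Shh-Stk11 2 was male and the others female. Lung epithelium was marked by Nkx2-1, at 169.5 to 207 FPKM, and by Epcam, at 95.5 to 120 FPKM. Over all 13770 genes tested, limma on log2(FPKM + 0.1) called 313 genes (2.27%) at an adjusted p of 0.05, 178 lower (1.29%) and 135 higher (0.98%), and 15.2% were at an unadjusted p under 0.05, 7.175% lower and 8.04% higher. Of the genes tested 58.3% had a fold change below 0, with a median of -0.05.

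Among the 79 genes, 56 were past this threshold, all lower, against 2.27% of all genes in either direction and 1.29% in this one. The threshold reads the same contrast as the rule, so nothing is drawn from that count. It became 15 without Control 1, 16 without Control 2, 10 with no filter on low values and 2 with replicate number as a block. In 78 genes both Controls were above 0. Their Control mean ranged from 1.001 to 87.3 FPKM with a median of 2.94 FPKM, and 53 of the 78 were at or under 5 FPKM. The Shh-Stk11 mean was 2.61% to 45.9% of the Control mean, with a median of 30.8%, and 62 genes lay between 25% and 45%. The median absolute log2 difference between replicates was 0.161 in Control and 0.21 in Shh-Stk11, against 0.183 and 0.158 over all genes tested. Rnu11, an RNA of the minor spliceosome, stood apart. It was listed at 20.1 FPKM in Control 1 and at 0 in Control 2 and in both Shh-Stk11 libraries, so it is left out of the summaries that follow.

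**Figure D1:**
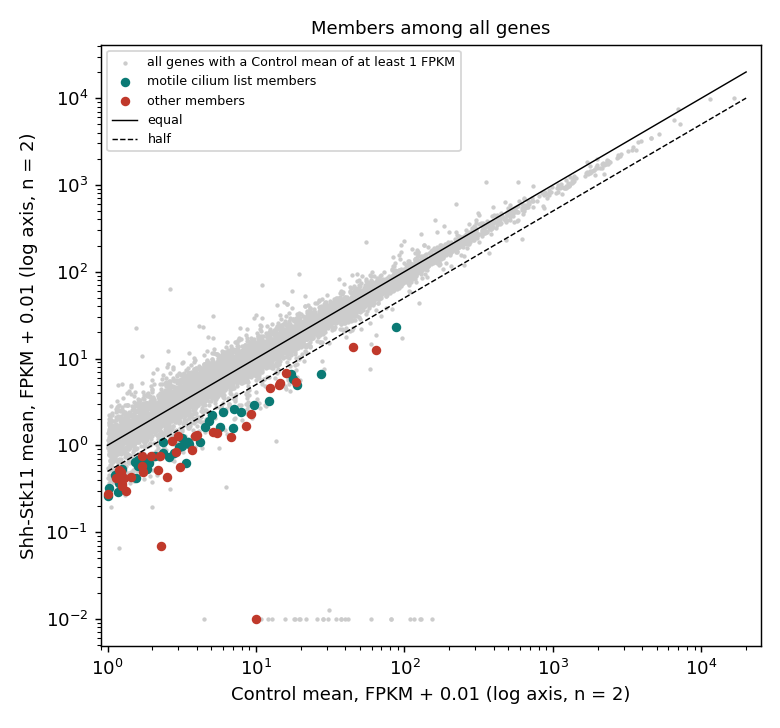
Shh-Stk11 mean against Control mean for every gene with a Control mean of at least 1 FPKM, in FPKM + 0.01 on log axes, with the motile cilium list members in green and the other members in red. The members lie below the dashed line, which marks a Shh-Stk11 mean at 0.5 of the Control mean, and the lowest red point at the bottom is Rnu11, listed at 0. The rule itself read single libraries, so grey points below the line are genes left out by symbol or with unequal replicates.

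The promoters of the 42 motile cilium genes are shown first. A RefSeq window (GRCm38.p6) of 250 bases before to 50 bases after the gene start was given for 34 of the 42 genes and for 28 of the other members. Both strands were searched. An X-box was present in 4 of the 34 genes (11.8%), in 0 of the 28 other genes and in 1.5% of all 27025 genes with a window. Its arm GTTGCC, which overlaps the X-box, was found in 14 of the 34 genes (41.2%), in 5 of the 28 (17.9%) and in 14.1% of all genes. The forkhead motif TGTTTAC was found in 3 of the 34 genes (8.82%), in 1 of the 28 (3.57%) and in 4.05% of all genes. The CCAAT core ATTGG was found in 32.4%, 42.9% and 41.1%. A match is a run of letters and not a measured binding site, and no match says only that these letters were not in the window. The 4 genes had 6 windows with an X-box, since Kif9 and Ankrd45 each had 2 windows, from different starts, that held the same element. For each gene 1 window is printed here because it holds the element that RFX factors bind, and the capitals mark it.
Dynlrb2, chr8:116504765-116505064, plus strand: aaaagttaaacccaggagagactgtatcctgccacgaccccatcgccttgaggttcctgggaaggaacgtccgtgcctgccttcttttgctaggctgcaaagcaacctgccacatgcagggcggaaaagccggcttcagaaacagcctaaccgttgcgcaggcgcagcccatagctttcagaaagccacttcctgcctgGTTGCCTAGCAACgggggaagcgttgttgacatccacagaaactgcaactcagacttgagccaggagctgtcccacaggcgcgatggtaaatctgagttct
Fam92b, chr8:120177420-120177719, minus strand: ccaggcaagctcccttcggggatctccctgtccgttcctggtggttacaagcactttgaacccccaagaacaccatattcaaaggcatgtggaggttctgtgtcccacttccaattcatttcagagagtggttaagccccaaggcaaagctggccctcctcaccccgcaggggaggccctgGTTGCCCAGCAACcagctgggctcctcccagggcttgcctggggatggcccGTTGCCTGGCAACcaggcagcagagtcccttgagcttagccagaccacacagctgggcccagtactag
Kif9, chr9:110476708-110477007, plus strand: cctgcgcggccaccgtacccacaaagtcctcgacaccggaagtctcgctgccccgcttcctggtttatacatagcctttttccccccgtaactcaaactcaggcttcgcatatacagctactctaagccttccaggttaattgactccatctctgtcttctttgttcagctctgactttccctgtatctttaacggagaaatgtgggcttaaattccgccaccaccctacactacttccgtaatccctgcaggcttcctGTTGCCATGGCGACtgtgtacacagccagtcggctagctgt
Ankrd45, chr1:161142447-161142746, plus strand: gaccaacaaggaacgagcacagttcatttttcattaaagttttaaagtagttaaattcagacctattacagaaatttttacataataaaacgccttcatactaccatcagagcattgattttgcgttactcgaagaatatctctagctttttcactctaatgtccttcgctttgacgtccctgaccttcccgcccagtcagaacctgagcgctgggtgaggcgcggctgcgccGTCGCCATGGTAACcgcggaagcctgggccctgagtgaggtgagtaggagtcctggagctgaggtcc
Counted from the RefSeq start that the printed window uses, taken as 0, which can differ from the GENCODE gene coordinates given further on, the element began at position -51 in Dynlrb2, at 9 in Kif9, at -17 in Ankrd45 and, for the first of its 2 copies, at -69 in Fam92b.

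The highest level of all 79 genes belonged to Dynlrb2, a roadblock light chain of dynein motors (chr8:116504974-116515915). It was at 80.1 and 94.5 FPKM in Control 1 and 2 and at 21.8 and 24.4 FPKM in Shh-Stk11 1 and 2, or 26.4% of the Control mean, and the X-box of its window lies close to the start. A second dynein light chain gene, Tctex1d4, was at 2.98 and 3.35 FPKM in Control and at 1.04 and 0.892 FPKM in Shh-Stk11. Zmynd10, needed in the cytoplasm to assemble dynein arms, was at 11.98 and 12.4 FPKM against 3.39 and 3.13 FPKM. Armc4, which docks outer dynein arms on the axoneme, was at 1.62 and 2.07 FPKM against 0.584 and 0.459 FPKM. Efcab1, whose product calaxin sits on outer dynein arms and binds calcium, was at 7.47 and 6.8 FPKM against 3.17 and 1.99 FPKM. Among these 5 genes of dynein arms and their assembly, the share left ran from 26.4% in Dynlrb2 to 36.1% in Efcab1. Efcab1 had the most unequal Shh-Stk11 libraries of the 5.

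The nexin-dynein regulatory complex links neighbouring doublets and steers the motors, and 4 of its genes were members. Iqcg was at 4.45 and 5.12 FPKM in Control and at 1.72 and 2.08 FPKM in Shh-Stk11. Iqcd was at 1.44 and 1.6 FPKM against 0.598 and 0.679 FPKM. Tcte1 was at 1.6 and 1.52 FPKM against 0.483 and 0.348 FPKM, and Iqca at 1.19 and 1.16 FPKM against 0.313 and 0.25 FPKM. The share left was lowest for Iqca, at 24%, and highest for Iqcd, at 42%. Exons of neighbours on the opposite strand covered 48.1% of the exon bases of Iqcg (Lrch3), 23.7% of those of Tcte1 (Tmem151b) and 16% of those of Iqcd (Rita1), and the strand setting of the counting was not given in the sources used here. Lrch3 was at 11.3 to 13.9 FPKM in the 4 libraries, above Iqcg in each, and its groups overlapped.

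Enzymes that handle nucleotides supply the axoneme with energy, and 4 genes of this kind and a malate dehydrogenase homolog were members. Nme5, a nucleoside diphosphate kinase homolog of the axoneme, was the highest, at 16.04 and 18.6 FPKM in Control and at 7.19 and 6.14 FPKM in Shh-Stk11. Txndc6, listed by RefSeq as Nme9, was at 6.43 and 4.99 FPKM against 1.22 and 2.03 FPKM. The adenylate kinase genes Ak7 and Ak8 were at 4.65 and 4.38 FPKM against 1.615 and 1.62 FPKM, and at 3.73 and 3.29 FPKM against 0.903 and 1.17 FPKM. Mdh1b, the malate dehydrogenase homolog, was at 2.53 and 2.63 FPKM against 0.753 and 0.699 FPKM. Over the 5 genes the share left ran from 28.2% in Mdh1b to 38.5% in Nme5. Ak8 starts 437 bases from Spaca9, which points the other way and is listed as a RIKEN clone. Spaca9 did not meet the factor, at 6.34 and 8.06 FPKM in Control and 3.56 and 3.57 FPKM in Shh-Stk11 (log2 fold change -0.98, limma adjusted p 0.0408).

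A kinesin and 5 protein kinase genes also met the rule. Kif9, a kinesin of the central apparatus, was at 2.4 and 2.31 FPKM in Control and at 1.009 and 1.15 FPKM in Shh-Stk11, the smallest difference of the 78 genes, with 45.9% left. The kinase gene Mak, a regulator of cilium length, was at 2.24 and 1.95 FPKM against 0.787 and 0.701 FPKM. Mapk15 was at 1.98 and 1.73 FPKM against 0.658 and 0.61 FPKM. The NIMA-related kinase genes Nek11 and Nek5 and the cyclin-dependent kinase-like gene Cdkl4 had Control means of 1.59, 1.25 and 1.58 FPKM and Shh-Stk11 means of 0.568, 0.517 and 0.675 FPKM. Over the 6 genes 34.2% to 45.9% was left.

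Small proteins known from cilia or sperm made up the next group. Fam183b, a gene of the axoneme (chr11:58792797-58801960), was at 27.9 and 26.6 FPKM in Control and at 7.09 and 6.28 FPKM in Shh-Stk11, with 24.6% left. Meig1, needed to build the sperm tail (chr2:3409043-3422648), was at 16.2 and 21.6 FPKM against 4.35 and 5.55 FPKM. Riiad1, which carries a dimerization domain of regulatory kinase subunits, was at 15.5 and 20.0 FPKM against 4.85 and 6.72 FPKM. These 3 genes were among the 8 highest of the 79. Efcab10, an EF-hand gene, was at 6.12 and 7.85 FPKM against 1.25 and 1.93 FPKM. The MORN-repeat genes Morn5 and Morn3 had Control means of 9.63 and 3.03 FPKM and Shh-Stk11 means of 2.87 and 0.94 FPKM. Odf3b, an outer dense fibre homolog, was at 3.97 and 4.45 FPKM against 0.933 and 1.23 FPKM. Exons of a predicted gene on the opposite strand covered 31.7% of the exon bases of Morn3.

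Fam92b, listed by RefSeq as Cibar2 and known from the base of the cilium, had the lowest share left of the 42 genes and an X-box in 2 copies (chr8:120166397-120177466). It was at 3.26 and 3.45 FPKM in Control and at 0.726 and 0.52 FPKM in Shh-Stk11, or 18.6% of the Control mean. Fam161a, a gene of the centrosome and cilium base, was at 6.11 and 5.87 FPKM against 2.45 and 2.41 FPKM. Dcdc2a, a doublecortin family gene, was at 1.1 and 1.14 FPKM against 0.461 and 0.441 FPKM. The other 12 genes of the list were Tmem212, Ubxn11, Tsnaxip1, Zfp474, Fank1, Fam47e, Armc3, Zmynd12, Vwa3a, Akap14, AU021034 and Ankrd45. Their Control means ran from 1.003 FPKM in Ankrd45 to 7.94 FPKM in Tmem212, and 24.8% to 43.65% was left. Summed over the 42 genes, the level was 281 and 312 FPKM in Control and 86.5 and 90.1 FPKM in Shh-Stk11, with similar sums within each genotype.

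**Figure D2:**
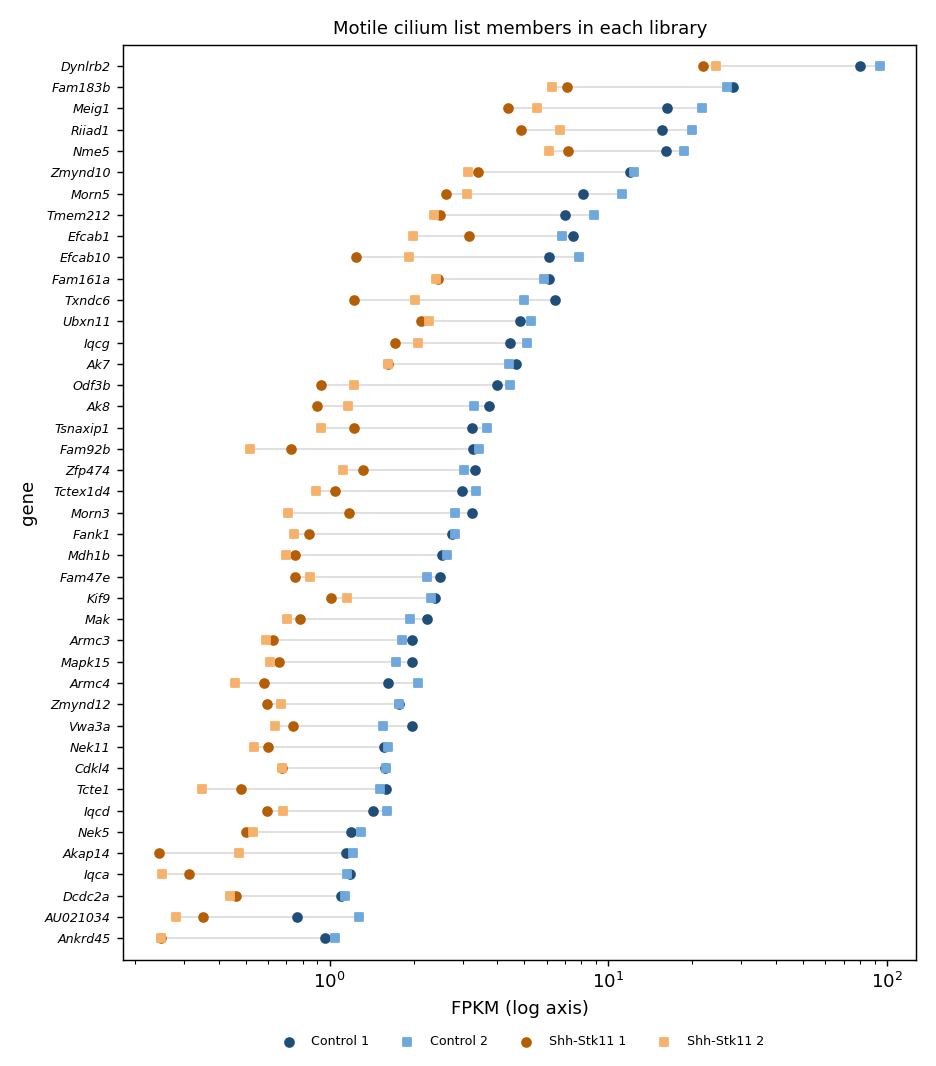
FPKM of the 42 members of the motile cilium list in each library, on a log axis, ordered by Control mean, with Control 1 and 2 in blue and Shh-Stk11 1 and 2 in orange. The rule sets the orange points to the left of the blue ones in every row, and the rows run from Dynlrb2 (80.1 and 94.5 against 21.8 and 24.4 FPKM) to Ankrd45 (0.962 and 1.04 against 0.2485 and 0.248 FPKM).

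The motile cilium list was written with earlier results of these data known, so its direction is not independent evidence. It had 114 tested genes, 42 of them the members chosen from this contrast, and 72 that the rule had not taken. Of the 72, 9 were past the threshold, each lower, against 1.29% of all genes tested in this direction (limma, 42 in either direction at an unadjusted p under 0.05). The count became 0 without Control 1 or Control 2, 2 without Shh-Stk11 1 and 4 without Shh-Stk11 2. It was 1 with the trend of length and GC removed, 4 with quantile normalization, and 0 with no filter on low values and with replicate number as a block. In all, 64 had a fold change below 0, against 58.3% of all genes tested, and the median was -0.57, against -0.05 over all genes tested. In 54 both Shh-Stk11 libraries were below both Controls, against 27.6% of all genes tested. Spata18 had a log2 fold change of -1.22 (limma adjusted p 0.0458) and fell from 7.53 and 5.08 to 2.68 and 2.54 FPKM. Ppil6 had one of -1.17 (limma adjusted p 0.0364) and fell from 5.66 and 6.12 to 2.21 and 2.96 FPKM. The call of Spata18 was lost in 12 of 14 alternatives and that of Ppil6 in 5. With the members included, 41 genes of the list were past the threshold and lower and 0 were higher, with a median of -0.995. These draw on the values that chose the members, and the 41 became 8 without Control 1, 4 without Control 2 and 26 without Shh-Stk11 1.

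Other cilium genes gave other counts. Genes of intraflagellar transport, the BBSome and the transition zone serve primary cilia as well. Of 69 tested, 2 were past the threshold and lower and 0 were higher, with a median log2 fold change of -0.14. Of the 69, 51 had a fold change below 0, against 58.3% of all genes tested. At an unadjusted limma p under 0.05, 12 were lower and 0 higher, against 7.175% and 8.04% of all genes tested. The 2 genes past the threshold were the member Mak and Tmem107, a transition zone gene that stands in the motile list too (log2 fold change -0.78, limma adjusted p 0.0408, lost in 9 of 15 alternatives). Of 53 tested centriole and deuterosome genes outside the families left out, 1 was lower and 0 were higher, with a median of -0.02 and 0 members (limma, 5 lower and 8 higher at an unadjusted p under 0.05). That gene was Ccno, a cyclin-like regulator of centriole amplification, at 8.74 and 9.04 FPKM in Control and at 5.04 and 4.63 FPKM in Shh-Stk11 (log2 fold change -0.87, limma adjusted p 0.0335, lost in 7 of 15 alternatives). Ccdc67, listed by RefSeq as the deuterosome gene Deup1 and left out by symbol, met the factor and the floor, at 6.92 and 8.89 FPKM in Control and at 3.02 and 2.76 FPKM in Shh-Stk11, with 36.6% left. Of 23 tested transcription regulators of multiciliated cells outside the same families, 2 were lower, Ccno and the member Fank1, with a median of -0.12 (limma, 5 lower and 4 higher at an unadjusted p under 0.05). The 4 higher ones were Rfx3, Rfx7, Foxp1 and Foxa2, with log2 fold changes of 0.69, 0.67, 0.66 and 0.38 and limma adjusted p of 0.134, 0.111, 0.14 and 0.19. Foxj1, left out by symbol, was at 16.1 and 15.4 FPKM in Control and at 4.76 and 4.71 FPKM in Shh-Stk11 (log2 fold change -1.71, limma adjusted p 0.00329, lost in 1 of 15 alternatives). Myb, also left out by symbol after it met the factor, was at 7.45 and 7.91 FPKM against 3.42 and 2.46 FPKM, with 38.3% left. Gm6320, listed by RefSeq as the regulator Mcidas and dropped from the list by symbol, was at 3.65 and 4.3 FPKM against 2.01 and 1.34 FPKM (log2 fold change -1.22, limma adjusted p 0.0586). Differences between these lists were not tested.

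**Figure D3:**
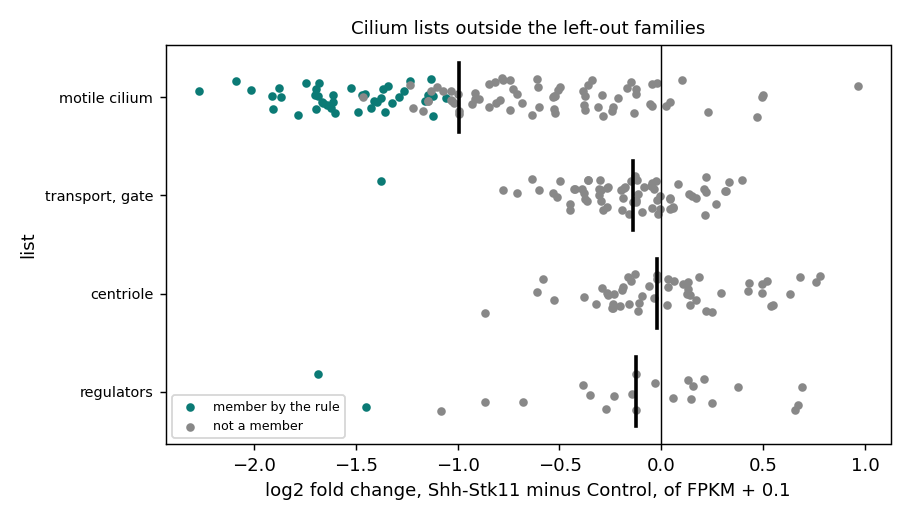
Log2 fold change (Shh-Stk11 minus Control, of FPKM + 0.1) of the tested genes in 4 cilium lists, with members in green, other genes in grey and the median as a black bar. The motile cilium list, with the members that the rule chose from this contrast, is centred at -0.995, the transport and gate list at -0.14, the centriole list at -0.02 and the regulator list at -0.12.

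Outside the list, 4 members are known from cilia or sperm tails. Rtdr1, which RefSeq lists as the radial spoke homolog Rsph14 (chr10:74957477-75032586), would have been left out under its current name. It was at 2.29 and 2.75 FPKM in Control and at 0.361 and 0.49 FPKM in Shh-Stk11, with 16.9% left. Agr3, a disulfide isomerase family gene known from airway ciliated cells, was at 3.78 and 4.19 FPKM against 1.11 and 1.52 FPKM. Fsip1, which interacts with the fibrous sheath of the sperm tail, was at 1.74 and 1.73 FPKM against 0.486 and 0.471 FPKM. Tmem232, another sperm tail gene, was at 1.06 and 1.43 FPKM against 0.326 and 0.341 FPKM. The share left in these 4 genes, with a median of 27.2%, lay within the range of the 42 list genes except for Rtdr1, which was below it.

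The other 33 members form a mixed set, and of the signals among them Npy2r had the lowest share left of the 78 genes. Npy2r encodes the Y2 receptor for neuropeptide Y and peptide YY, a G-protein coupled receptor of nerve endings (chr3:82538383-82548084). It was at 2.63 and 1.94 FPKM in Control and at 0.023 and 0.0963 FPKM in Shh-Stk11, which corresponded to an estimated 2.24 and 10.1 reads, or 2.61% of the Control mean. Both Shh-Stk11 libraries were thus close to the limit of detection. The other receptors of the family, Npy1r, Ppyr1, Npy5r and Npy6r, were at or under 0.208 FPKM in every library, and the ligand genes Npy and Pyy at or under 0.0938 FPKM. Of 30 tested receptor genes of the lung, 2 were past the threshold and lower, Npy2r and Cckar, and 0 were higher, with a median of -0.16 (limma, 3 lower and 1 higher at an unadjusted p under 0.05). Cckar, the cholecystokinin A receptor, was at 21.3 and 25.1 FPKM in Control and at 13.6 and 13.7 FPKM in Shh-Stk11 (log2 fold change -0.76, limma adjusted p 0.0444, lost in 11 of 15 alternatives). Summed levels of 25 nerve and ganglion genes were 51.2 and 49.0 FPKM in Control and 47.6 and 45.9 FPKM in Shh-Stk11, and 0 of the 8 tested were past the threshold (limma, 3 lower and 2 higher at an unadjusted p under 0.05, against 15.2% of all genes tested).

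Crh, the gene of corticotropin-releasing hormone (chr3:19693401-19695396), had the third highest Control mean of the 79 genes. It was at 41.6 and 48.0 FPKM in Control and at 14.8 and 12.7 FPKM in Shh-Stk11, with 30.6% left. Its receptor genes Crhr1 and Crhr2 were at or under 0.107 FPKM in every library. Hdc, whose product makes histamine from histidine, was at 12.7 and 12.25 FPKM against 4.74 and 4.33 FPKM. Mast cells are a known source of histamine, and their genes Cpa3 (1.22 and 2.44 against 3.17 and 1.38 FPKM) and Cma1 (1.27 and 3.75 against 4.55 and 2.28 FPKM) overlapped between the groups. Kit, a receptor of mast cells and of other cells, was at 22.7 and 15.9 FPKM in Control and at 14.2 and 13.75 FPKM in Shh-Stk11 (log2 fold change -0.44, limma adjusted p 0.325), both below both Controls. Lhb, the beta subunit of luteinizing hormone, was at 1.92 and 2.42 FPKM against 0.43 and 0.599 FPKM. The gene of the partner subunit, Cga, was listed at 0 in all libraries, and exons of Ruvbl2 on the opposite strand covered 20.4% of the exon bases of Lhb. Ruvbl2 was at 56.0 and 60.2 FPKM in Control and at 41.7 and 39.8 FPKM in Shh-Stk11, and its part in the level listed for Lhb was not tested.

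Wnt3a, a ligand of the canonical WNT pathway (chr11:59248033-59290752), was at 3.4 and 2.71 FPKM in Control and at 0.369 and 0.732 FPKM in Shh-Stk11, with 18.02% left. Axin2, a common target of that pathway, was at 13.9 and 10.1 FPKM against 7.83 and 8.02 FPKM (log2 fold change -0.57, limma adjusted p 0.183), and the receptor gene Fzd1 at 21.4 to 26.2 FPKM with overlapping groups. Oit1, a secreted protein of the FAM3 family, was at 1.76 and 2.12 FPKM against 0.682 and 0.806 FPKM. Among the 6 signals 2.61% to 38.4% was left.

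Transcription and cell-cycle genes gave 6 members. Bex2, a brain expressed X-linked gene (chrX:136066564-136068236), was at 83.8 and 44.1 FPKM in Control and at 13.1 and 11.6 FPKM in Shh-Stk11, with 19.3% left. Its Controls were the most unequal of the 78 genes, and the male library was close to the female one of its genotype. Its close homolog Bex1 was at 37.2, 52.9, 38.0 and 38.2 FPKM in the same order, so the groups of Bex1 overlapped, and the division of reads between homologs is uncertain. Bex2 stands in the list of neuroendocrine cell genes, where it was the 1 gene past the threshold of 12 tested. Without Bex2 the sum of that list was 78.1 and 84.3 FPKM in Control and 92.6 and 88.8 FPKM in Shh-Stk11. Of the 11 other genes tested 6 had a fold change below 0, with a median of -0.03, and Calca (6.09 and 9.22 against 17.2 and 15.5 FPKM) and Nov (6.98 and 4.78 against 12.5 and 11.8 FPKM) were among the higher ones in Shh-Stk11.

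Ccna1, a cyclin A best known from male germ cells (chr3:55045469-55055501), was at 8.53 and 9.85 FPKM in Control and at 2.45 and 2.12 FPKM in Shh-Stk11. Foxn4, a forkhead factor with a role in multiciliated cells of other species, was at 1.72 and 1.68 FPKM against 0.679 and 0.457 FPKM. The zinc finger genes Zbtb8b and Zfp385b were at 6.38 and 4.45 FPKM against 1.1 and 1.65 FPKM, and at 3.15 and 2.23 FPKM against 1.11 and 1.09 FPKM. Zfp385b was also the member closest to the factor of the rule. The histone gene Hist1h2bn, with a transcript of 381 bases, was at 0.908 and 1.09 FPKM against 0.187 and 0.347 FPKM, which corresponded to an estimated 5.92 reads in each Control and 0.987 and 1.97 reads in Shh-Stk11, and histone copies share much of their sequence. Of these 6 genes, Bex2 and Ccna1 had Control means above 9 FPKM and the others lay between 1.001 and 5.42 FPKM.

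Cell surface, matrix and adhesion genes were the largest set outside the cilium, with 8 members. Lrrn1, a leucine-rich repeat membrane protein (chr6:107529768-107570214), was at 6.88 and 6.73 FPKM in Control and at 1.27 and 1.2 FPKM in Shh-Stk11, with 18.1% left and replicates that were almost equal. Cdh8, a classical cadherin known from the nervous system, was at 3.55 and 3.86 FPKM against 0.885 and 0.879 FPKM. Anxa8, an annexin that binds phospholipids in the presence of calcium, was at 18.2 and 18.8 FPKM against 5.5 and 5.26 FPKM. Serpinf1, the gene of pigment epithelium-derived factor, was at 16.4 and 15.4 FPKM against 6.67 and 6.98 FPKM. Epb4.1l4b, a FERM domain gene, was at 16.1 and 12.8 FPKM against 5.12 and 5.26 FPKM. The secreted metalloprotease gene Adamdec1 and the tenascin gene Tnn had Control means of 2.89 and 1.22 FPKM and Shh-Stk11 means of 0.825 and 0.479 FPKM. Over the 8 genes 18.1% to 42.9% was left, with a median of 31.9%.

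Spock2, a testican proteoglycan of alveolar type 1 cells, was at 17.3 and 11.1 FPKM in Control and at 4.53 and 5.3 FPKM in Shh-Stk11. Of 28 tested genes of that cell type, 2 were past the threshold and lower, Spock2 and Pdpn, and 0 were higher, with a median of -0.25 (limma, 7 lower and 3 higher at an unadjusted p under 0.05). Pdpn fell from 76.7 and 62.3 to 25.1 and 36.9 FPKM, with a log2 fold change of -1.18 (limma adjusted p 0.0464, lost in 11 of 15 alternatives). The summed level of the 28 genes was 4298 and 3447 FPKM in Control and 2854 and 3735 FPKM in Shh-Stk11, so the groups overlapped.

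Of the other members, 6 act in signalling inside the cell or in channels, with 28.3% to 44.2% left. Dyrk3, a dual-specificity kinase, was the highest, at 3.28 and 2.71 FPKM in Control and at 1.27 and 1.24 FPKM in Shh-Stk11. Rasl10b, a small GTPase, was at 1.67 and 1.73 FPKM against 0.682 and 0.817 FPKM. Kcnmb2, a beta subunit of the large-conductance calcium-activated potassium channel, was at 1.5 and 1.36 FPKM against 0.37 and 0.465 FPKM. Elmod1, an ELMO domain gene, was at 1.3 and 1.25 FPKM against 0.405 and 0.414 FPKM. Kndc1, an exchange factor for Ras proteins, and the copine gene Cpne7 had Control means of 1.24 and 1.13 FPKM and Shh-Stk11 means of 0.351 and 0.408 FPKM. All 6 were low genes.

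The remaining 7 members were enzymes and others, among them Rnu11. Rmrp, the RNA component of RNase MRP, was listed at 10.2 and 6.78 FPKM in Control and at 1.3 and 2.01 FPKM in Shh-Stk11. It has a transcript of 271 bases, and exons of Ccdc107 covered 45.8% of its bases on the other strand, so these values are uncertain. BC051019, an uncharacterised gene, was at 5.14 and 5.16 FPKM against 1.31 and 1.49 FPKM. Tecrl, an enoyl-CoA reductase homolog known from heart muscle, was at 4.47 and 3.3 FPKM against 1.24 and 1.32 FPKM. Summed levels of 38 heart and skeletal muscle genes were 193 and 406 FPKM in Control and 232 and 102 FPKM in Shh-Stk11, and overlapped. Of the 22 tested, 21 had a fold change below 0, with a median of -0.90, against 58.3% and -0.05 over all genes tested, 0 were past the threshold and 4 were at an unadjusted limma p under 0.05. Their part in the level of Tecrl was not tested. Bcas1, known from myelin-forming cells, was at 2.24 and 2.23 FPKM against 0.648 and 0.854 FPKM. The asparaginase gene Aspg and Tomm20l, a homolog of a mitochondrial import receptor, had Control means of 1.19 and 1.32 FPKM and Shh-Stk11 means of 0.513 and 0.286 FPKM. For Tomm20l this corresponded to an estimated 20.2 and 14.45 reads in Control and 4.82 and 1.93 reads in Shh-Stk11.

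**Figure D4:**
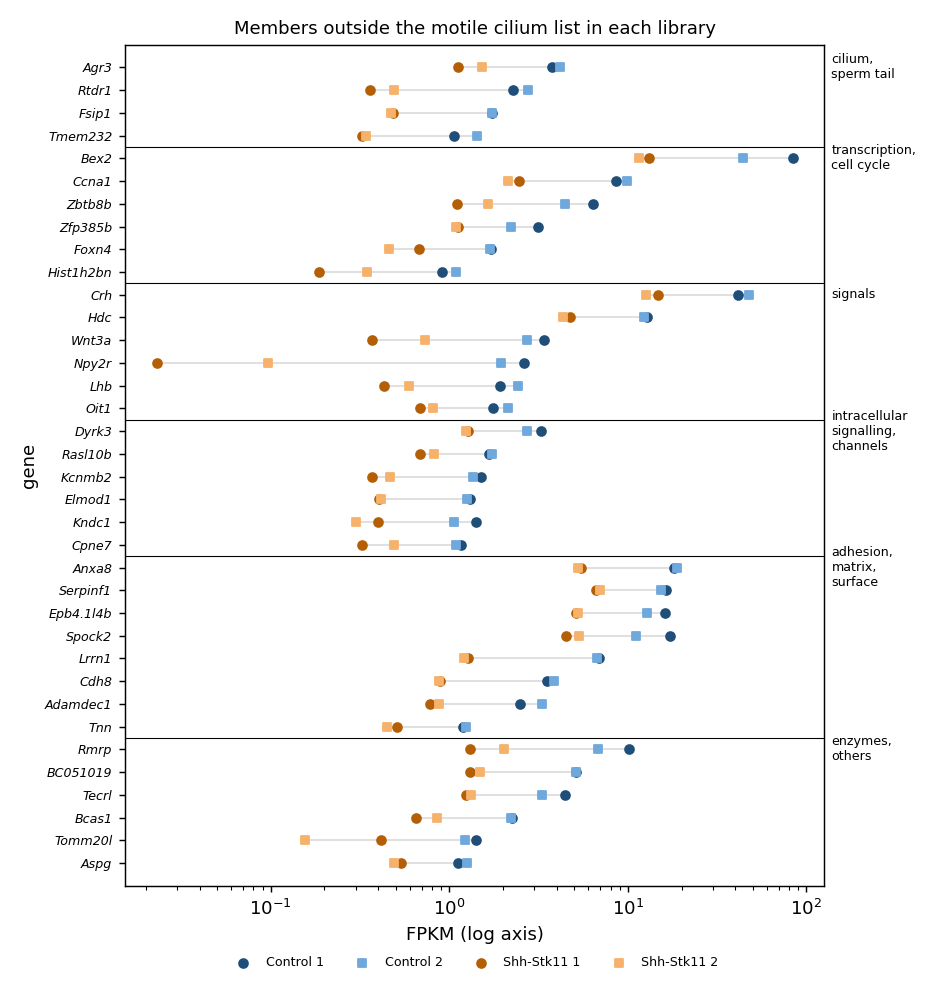
FPKM of the 36 members outside the motile cilium list that were above 0 in both Controls, in each library on a log axis, grouped by role, with Control 1 and 2 in blue and Shh-Stk11 1 and 2 in orange. The rule sets the orange points to the left of the blue ones in every row, and Npy2r lies farthest to the left at 0.023 and 0.0963 FPKM.

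By role, the median share left was 31.1% in the 42 motile cilium genes, 27.2% in the 4 other cilium or sperm genes, 26.01% in transcription and cell cycle, 27.2% in signals, 34.1% in intracellular signalling, 31.9% in adhesion and matrix and 30.0% in enzymes and others. In the 106 genes left out by symbol that were above 0 in both Controls it was 30.7%. The rule capped each value, and the groups were not compared by a test. Between the Shh-Stk11 libraries, 38 of the 78 genes were higher in library 2, the male, and between the Controls 41 were higher in library 2. The members lay on 19 chromosomes, with Bex2 and Akap14 on X. Their transcripts were shorter than those of all genes tested, with a median of 2226 against 3308 bases, and their GC content was similar, at 49.3% against 49.9%.

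**Figure D5:**
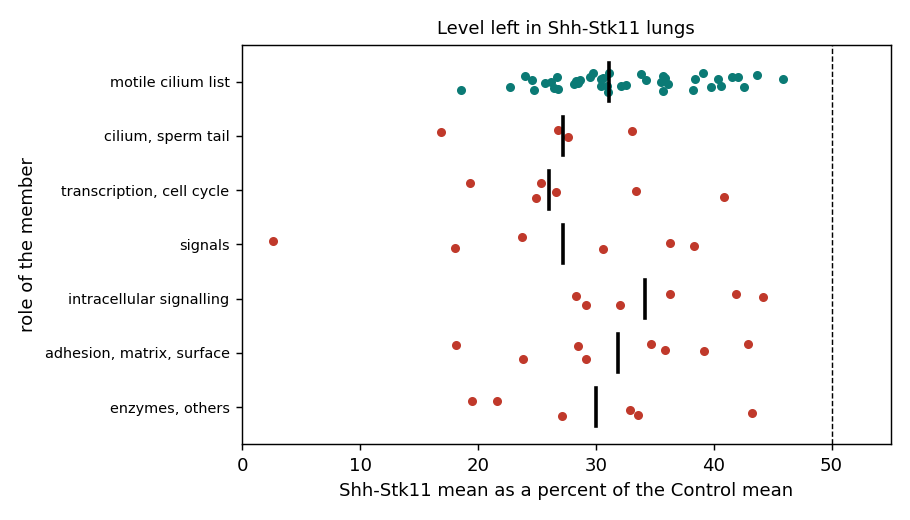
Shh-Stk11 mean as a percent of the Control mean for 78 members by role, 1 point per gene with vertical scatter for clarity, and the group median as a black bar. The medians lie between 26.01% and 34.1%, the dashed line marks 50%, and Npy2r, at 2.61%, is the lowest of these 78. Genes left out by symbol, such as Gkn2 (4.62%) and Cym (8.06%), are not drawn.

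At the edge of the factor, the higher Shh-Stk11 value was 0.499 of the lower Control value in Zfp385b and in Kif9 and 0.49 in Rasl10b. Just outside were Itpka (0.501), Dydc2 (0.507) and Hist2h4 (0.512), and Dydc2 belongs to the motile cilium list. In 30 of the 78 genes this ratio was above 0.4. At the floor, Hist1h2bn (1.001 FPKM), Ankrd45 (1.003 FPKM) and AU021034 (1.02 FPKM) were just inside by their Control mean, and Tm6sf2 (0.947 FPKM), Guca2a (0.941 FPKM) and Ysk4 (0.918 FPKM) were just outside.

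Lists of other cells of the lung were read beside the members. Of the lists for endothelial (28 genes tested), red blood (27), immune (31), mesenchymal and smooth muscle (35), mesothelial (11), heart and skeletal muscle (22) and gastric genes (9), 0 genes were past the threshold, with 5, 4, 6, 10, 4, 4 and 2 genes at an unadjusted limma p under 0.05, against 15.2% of all genes tested, and 0 were members. Some of their sums moved with the genotype all the same. The FPKM sum of all genes was itself lower in Shh-Stk11, at 579900 and 628100 in Control against 514900 and 567900. Its part in the sums of the lists was not tested. The endothelial sum was 1459 and 1288 FPKM in Control and 1054 and 1134 FPKM in Shh-Stk11, the mesothelial sum 202 and 171 against 117 and 138 FPKM, the mesenchymal sum 4184 and 3873 against 3134 and 3383 FPKM, and the red blood sum 957 and 1040 against 815 and 848.5 FPKM. The gastric sum was higher in Shh-Stk11, at 429 and 358 FPKM in Control against 500.5 and 590.5 FPKM, most of it from Cldn18 (352 and 276 against 437 and 516 FPKM), whereas 7 of the 9 genes tested had a fold change below 0, with a median of -0.05. The part of these cells in the levels of the members was not tested. Of 19 tested airway secretory genes outside the Scgb family, 2 were lower, Nupr1 (log2 fold change -1.12, limma adjusted p 0.0322, lost in 7 of 15 alternatives) and Cckar, and 0 were higher (limma, 7 lower and 4 higher at an unadjusted p under 0.05). The sum of the list was 1427 and 1250 FPKM in Control and 1540 and 2369 FPKM in Shh-Stk11. Its rise rested on Cbr2, a carbonyl reductase, at 422 and 286 FPKM against 738 and 1432 FPKM (log2 fold change 1.56, limma adjusted p 0.0832). Of the 19 genes tested, 10 had a fold change below 0 and 9 above, with a median of -0.21. Of the Scgb genes, Scgb1a1, a marker of club cells, was at 221 and 102 FPKM in Control and at 312 and 471 FPKM in Shh-Stk11 (log2 fold change 1.349, limma adjusted p 0.144). Scgb3a2, another secretoglobin of the airway, was at 552 and 679 FPKM against 286 and 185 FPKM (log2 fold change -1.41, limma adjusted p 0.0422, lost in 10 of 15 alternatives). The mucin gene Muc5b, too low for the test, was at 0.0178 and 0.0364 FPKM against 0.737 and 0.285 FPKM. Of 10 basal cell genes tested, Pdpn was the 1 past the threshold. Of 27 tested genes of alveolar type 2 cells, 0 were lower and 2 were higher, Il33 (log2 fold change 1.64, limma adjusted p 0.0116, lost in 3 of 15 alternatives) and Ppp1r14c (0.74, limma adjusted p 0.0398, lost in 8), with 3 lower and 3 higher at an unadjusted p under 0.05. The sum of that list was lower in Shh-Stk11, at 21080 and 18230 FPKM in Control against 10630 and 15420 FPKM, most of it from Sftpc. Without Sftpc it was 3658 and 2447 against 2623 and 3374 FPKM, so the groups overlapped, and the median log2 fold change of the list was -0.08. Among 24 tested immediate early and stress genes, Egr1 was higher (log2 fold change 1.035, limma adjusted p 0.0259, lost in 6 of 14 alternatives), and of 3 tested genes for neuropeptide Y ligands and peptide processing 0 were past the threshold, with 1 at an unadjusted p under 0.05.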

How the data were processed

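RNA was sequenced from whole E16.5 lungs, 2 Control and 2 Shh-Stk11 libraries, as single-end reads per the study's methods. The authors deposited a single table of FPKM values, which they made before deposit by scaling reads to transcript length and library size. The submitters' processing notes name TopHat2 2.0.13 and Cufflinks 2.2.1, and both GRCm38 and mm9 with no role, so coordinates here are those of GENCODE M21 and RefSeq on GRCm38, not of the files. Strand was not given in the sources used here. GENCODE M21 held 20242 of the symbols as written and another 1914 under a RefSeq synonym, with 185 in RefSeq alone and 215 unmatched. Promoter windows were those of RefSeq, found for 62 of the 79 members.

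Read numbers are estimates. Among 1737 low genes, 77.4% had values that were whole multiples of a step, within 0.05 of a step, and 198 genes with 1 transcript of at least 2000 bases gave the depth. Reads of a gene were estimated from its longest transcript less 210 bases, which counts poorly for transcripts as short as 271 bases.

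Members were found by the rule on the FPKM values as deposited. The members, the 20 gene lists and the tests were chosen with earlier results of these data known. limma 3.58.1 in R 4.3.3 was fitted on log2(FPKM + 0.1) to the 13770 genes whose mean over the 4 libraries reached 0.5 FPKM, with genotype as the only term and eBayes with a trend. Tests were two-sided, adjusted by Benjamini-Hochberg over all of these genes at 0.05. Fold changes are on the log2(FPKM + 0.1) scale, which understates those of low genes. The fit was tested on simulated data. Every p rests on 2 against 2 libraries, and on 2 residual with 4.48 prior degrees of freedom. Genotypes share replicate numbers in the labels, which name no shared litter or day. The deviations of same-numbered libraries from the mean of their genotype correlated at -0.11, so the numbers were not taken as pairs.

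Named were the 10 members with the largest difference, the 5 highest, up to 4 per role, those at the edges of the rule and, of the lists, up to 3 other genes past the threshold. A further gene that this rule takes is not reported here. The other members named with values, and the genes named beside them (receptors, ligands, homologs, neighbours), were chosen after their values were seen. Alternatives were other pseudocounts (0.01 and 1), filters (0.1 and 5 FPKM, or none), quantile and median ratio scaling, no trend, removal of the length and GC trend with mgcv 1.9.3, a replicate block, other factors and floors of the rule, and each library left out. A crossed pairing of Control 1 with Shh-Stk11 2 and Control 2 with Shh-Stk11 1, chosen after seeing the data, was fitted too. The alternatives counted for a named gene include it and leave out the factors and floors.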

Additional observations from a re-analysis of the deposited data

How the results depend on the processing

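The 79 genes became 73 with quantile normalization and 74 with median ratio scaling, all of them among the 79, and 72 after the trend with length and GC was taken out, of which 68 were among the 79. A looser factor gave 189 genes and a stricter one 26, a Control floor of 5 FPKM 26 and one of 0.5 FPKM 101. Leaving out a library removes a condition, and gave 124 to 142 genes. The 313 calls became 200 with a filter of at least 5 FPKM, 61 with no filter and 201 without the trend of length and GC, and ranged from 104 to 319 with 1 library left out, where the lone library of a group is assumed to vary like the other group. They numbered 374 and 303 with pseudocounts of 0.01 and 1. The 41 lower genes of the motile cilium list became 14 with the 5 FPKM filter, where 38 of its genes were tested, 3 with no filter, 27 with quantile normalization, 22 without the trend of length and GC, and 4 to 30 with 1 library left out, and 0 list genes were called higher in any of these fits. With replicate number as a block (replicate block), 13 genes and 2 of the list were called, a fit with 1 residual degree of freedom. The crossed pairing, chosen after seeing the data, gave 675 and 53. The share of calls that were lower was 56.9%, and 67.2% with no filter, 45% with the 5 FPKM filter and 46.7% with the crossed pairing. The cause of these changes was not tested. Depth limits the lowest values, such as those of Npy2r, Hist1h2bn and Tomm20l, and short transcripts.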
